A study of Rattus norvegicus with 79 samples.

Results

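Protein kinase C (PKC) genes were measured as messenger RNA in the CA1 field of the rat hippocampus. The members are Prkca, Prkcb, Prkcd, Prkce and Prkcz. They were taken as all probe sets whose gene symbol in the platform's annotation is one of these 5, which gave 12 probe sets of the 8799 on the array, whose single-symbol probe sets name 4736 genes. A probe set is a group of short probes read together as 1 signal. Prkca had 1 probe set, Prkcb 3, Prkcd 2, Prkce 4 and Prkcz 2. The probe sets M18331_at and M18331_g_at of Prkce come from the same accession, as do M18330_at and M18330_g_at of Prkcd, so they are not independent readings of those genes.

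PKC enzymes are kinases that act downstream of receptors coupled to phospholipase C. This lipase splits a membrane phosphoinositide into diacylglycerol, which stays in the membrane, and inositol trisphosphate, which releases calcium. The conventional isoforms alpha (Prkca) and beta (Prkcb) need calcium and diacylglycerol, the isoforms delta (Prkcd) and epsilon (Prkce) need diacylglycerol but not calcium, and the atypical isoform zeta (Prkcz) needs neither. In hippocampal neurons these kinases are studied for transmitter release, synaptic plasticity and memory.

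The 79 arrays came from as many male Fisher-344 rats (the labels' spelling), 1 array per animal. The young were 3 and the aged 24 months of age, and all were killed 24 hours after the last trial. In each rat the CA1 cell layer was taken with a punch of 300 µm, and its RNA was amplified in a pair of rounds. Cage controls were left in the home cage, yoked controls swam in a water maze without a platform, visible platform rats were trained with a platform in sight, and hidden platform rats had to learn its place. The young groups held 3 cage, 6 yoked, 4 visible and 6 hidden platform rats. The aged groups held 5 cage, 8 yoked, 8 visible, 13 hidden unimpaired and 10 hidden impaired rats, named for how they learned. The titles of 16 more aged rats trained on the hidden platform hold the letter B, and what it stands for is not stated. Nothing in the labels links animals of different groups, and no genetic change is named. The punch takes a mixed tissue, so fewer cells of a type and less RNA per cell cannot be told apart in any result given here.

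Signals are linear values scaled by the authors, and differences are on the scale log2(signal + 15), which understates the change of dim probe sets. Of the 12 probe sets, 9 had a mean signal above 116.89, the level under which 40% of all probe sets fell, and were tested. The other 3 were Prkca X07286cds_s_at, Prkcd M18330_at and Prkcz J04532_at, with mean signals of 91.3, 50.3 and 97.6, and only their values are given. A probe set passed the threshold when its adjusted p was under 0.05 over all 5244 probe sets tested (limma, Benjamini-Hochberg). Each array was set against every other by Spearman correlation, and the median per array lay between 0.223 and 0.94. It was under 0.85 on 14 arrays, called arrays of low correlation, among them 2 of 3 young cage, 2 of 4 young visible, 4 of 8 aged visible and 0 of 16 B arrays. RNA intactness was read from control probe sets at the 3' and 5' ends of transcripts, whose signal ratio (3'/5', log2) averaged 1.07 ± 1.39 (SD, n = 3) in young cage controls, 3.70 ± 0.93 (SD, n = 5) in aged cage controls and 2.56 to 3.44 in the other groups. Of 10 listed CA1 pyramidal neuron markers, 5 were measured (Hpca, Nrgn, Chn1, Itpka and Pou3f1), and none was at 0 on any array. Their summed signal ran from 20568 to 52392, with a median of 47206, on the 19 young arrays, and from 3780 to 82486, with a median of 45985, on the 44 aged arrays other than B.

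Prkcz is shown first by its sequence, read before the gene's outermost start, and no other member's RefSeq promoter window is shown. Windows were matched for Prkca, Prkcd, Prkce and Prkcz. The 230 bases before the start of Prkcz lie on chromosome 5 of RefSeq build GRCr8, minus strand, chr5:171212695-171212924. Their GC content was 72.6%. Capitals mark the letters ATTGG, the reverse complement of the CCAAT box, which binds the factor NF-Y.
Prkcz upstream: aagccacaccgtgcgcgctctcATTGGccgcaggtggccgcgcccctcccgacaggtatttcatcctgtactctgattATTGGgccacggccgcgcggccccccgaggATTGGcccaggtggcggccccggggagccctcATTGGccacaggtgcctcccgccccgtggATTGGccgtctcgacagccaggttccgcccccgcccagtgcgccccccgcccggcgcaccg
The CCAAT box was searched as CCAAT on both strands, and 5 copies were found, all as ATTGG. Of 33469 RefSeq windows, each read over its first 230 letters, 32.2% held at least 1 copy and 43 windows (0.128%) held as many or more. Whether those letters end at a gene's start in the other windows was not checked. The GC box, searched as GGGCGG on both strands, occurred 4 times, as often as or more often than that in 3.02% of windows, while 28.4% held at least 1. Neither TATAAA, present in 12.2% of windows, nor TGACGTCA, present in 1.37%, was in these letters. These matches describe the sequence, and binding was not measured. In brain, the short form of the protein called PKM zeta is made from a start inside the gene, and which transcripts the Prkcz probe sets read is not given in the sources used here.

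Prkce, the calcium-independent isoform epsilon, was higher in aged than in young CA1 on its probe set M18331_at, and this was the clearest age difference among the members. In young cage controls the signal was 92.2, 198 and 208, and in aged cage controls it was 332, 365, 458, 553 and 649, so that the groups did not overlap. All aged above all young was seen in 9.86% of all probe sets in cage controls, and all aged below in 10.9%. In young visible platform rats it was 73.5, 111, 118 and 121, against 31.7 to 694 (median 573) in the 8 aged ones, of which 7 lay above every young rat. Young yoked rats ran from 94.9 to 311 with a median of 154, and aged yoked rats from 27.2 to 772 with a median of 498, with 6 of 8 above every young one. Young hidden platform rats ran from 146 to 596, and their median of 386 was the highest of the young groups. They overlapped with young cage and yoked rats, and with unimpaired (198 to 863, median 484) and impaired (309 to 1091, median 538) aged rats.

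With treatment as a factor over 63 arrays, M18331_at rose by 1.03 ± 0.23 (SE) on the log2 scale with age, or 2.04-fold, with an adjusted p of 0.00446. Of the 44 aged rats, 37 lay above the young mean of their own treatment. The probe set M15523_s_at of the same gene rose by 0.46 ± 0.14 (SE), with an adjusted p of 0.0393 and 31 of 44 aged rats above the young mean. These were the 2 probe sets past the threshold of 9 tested, both higher and both of the gene Prkce. Members counted of 9, here and below, are probe sets and not separate genes, 4 being of Prkce and 3 of Prkcb. Of all 5244 probe sets 269 passed (5.13%), 3.2% as higher and 1.93% as lower. Before adjustment 5 of the 9 members had a p under 0.05, against 20.8% of all. The median difference of the 9 members was 0.48, against -0.05 over all probe sets, and 7 of the 9 were above 0, against 43.8% of all.

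**Figure D1:**
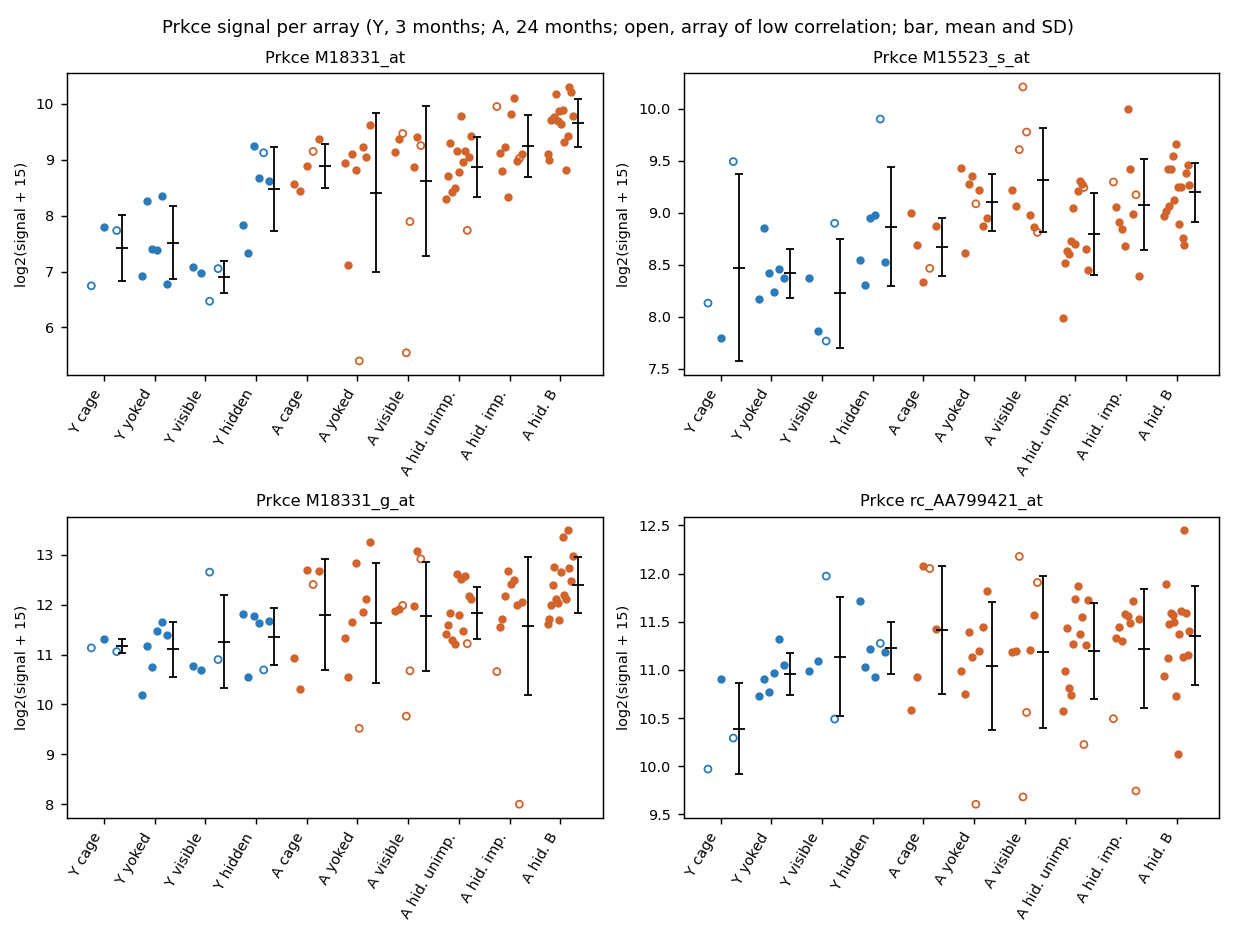
Signal of the 4 Prkce probe sets as log2(signal + 15), 1 point per array, in the 4 young (Y, blue) and 6 aged (A, orange) groups, with the mean and SD as a bar beside each group and arrays of low correlation as open points. On M18331_at the aged means lie between 8.41 and 9.65 and the young means between 6.89 and 8.47, while rc_AA799421_at shows largely overlapping groups.

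The 4 Prkce probe sets did not give the same size. M18331_g_at had a difference of 0.48 ± 0.25 (SE) with age and an adjusted p of 0.27, and rc_AA799421_at 0.18 ± 0.17 (SE) and 0.60, each with 33 of 44 aged rats above the young mean. The signal of M15523_s_at was 207, 265 and 705 in young cage controls and 307, 338, 397, 455 and 497 in aged ones, so the highest value of both groups was young, on an array of low correlation. In yoked rats it ran from 273 to 446 in the young and from 377 to 673 in the aged, with 7 of 8 aged above every young one. In visible platform rats it was 203, 217, 317 and 463 in the young and 434 to 1170 (median 551) in the aged. In hidden platform rats the difference was 0.05 ± 0.22 (SE), and 12 of 23 aged rats lay above the young mean.

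M18331_at passed the threshold in each of 11 other settings, with adjusted p values up to 0.0479, close to the threshold. It also passed with each of the 63 arrays left out in turn (adjusted p 0.000426 to 0.0124 there). M15523_s_at passed with 47 of 63 arrays left out in turn and in 8 of 11 settings. Without the 14 arrays of low correlation, where 13.9% of all probe sets passed, 4 of the 9 members did. These were M18331_at at 1.16 ± 0.19 (SE), M15523_s_at at 0.53 ± 0.13, M18331_g_at at 0.74 ± 0.20 and Prkcz M18332_s_at at 0.59 ± 0.13.

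**Figure D2:**
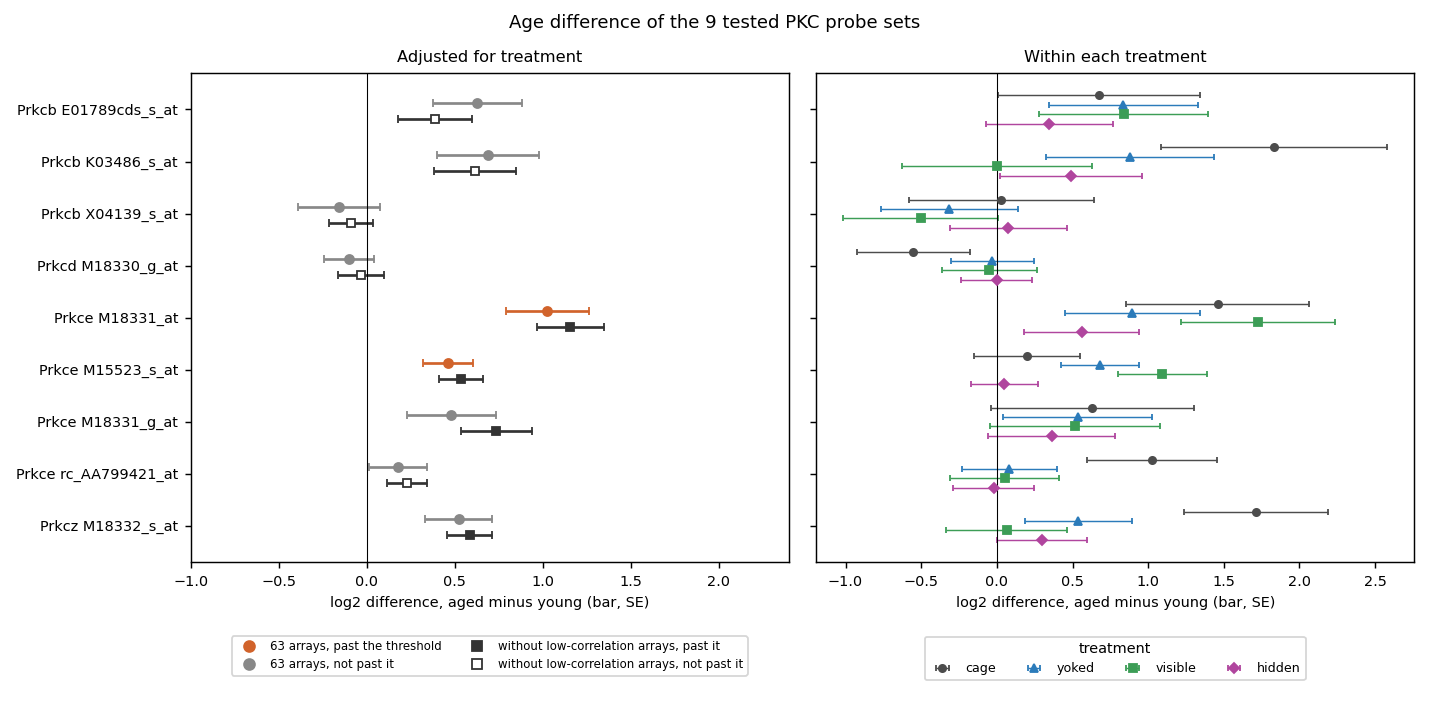
Log2 difference aged minus young (x axis, bar is SE) of the 9 tested probe sets, on the left with treatment as a factor over 63 arrays and without the arrays of low correlation, and on the right within each treatment. Prkce M18331_at lies above 0 in all 4 treatments (0.56 to 1.73), while Prkcd M18330_g_at lies at or below 0 in each.

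Within treatments, the age difference of M18331_at was 1.46 ± 0.60 (SE) in cage, 0.89 ± 0.45 in yoked, 1.73 ± 0.51 in visible and 0.56 ± 0.38 in hidden platform rats, and none of these passed the threshold alone. Of all probe sets, 17% passed in cage controls, 0% in yoked, 0.0381% in visible and 0% in hidden platform rats. In yoked rats 2 of the 9 members had a p under 0.05 before adjustment, against 7.8% of all. In cage controls 4 of 9 did (32.2% of all), in visible platform rats 2 (6.88%) and in hidden platform rats 0 (2.02%). Leaving out 1 aged yoked array of low correlation, number 63, together with the other 13, changed the yoked comparison, in which 6.5% of all probe sets then passed. There, with 6 young and 7 aged rats, M18331_at was 1.32 ± 0.31 (adjusted p 0.00764), M15523_s_at 0.68 ± 0.21 (0.0371), Prkcz M18332_s_at 0.78 ± 0.21 (0.0184) and Prkcb K03486_s_at 1.29 ± 0.38 (0.0325), so that 4 of 9 members passed. With the 3'/5' ratio in the model, the difference of M18331_at in cage controls was 0.50 ± 0.59 (adjusted p 0.742), where 1.53% of all probe sets passed, and that in yoked rats 0.94 ± 0.40 (0.387), where 0% did. In visible platform rats it was 1.84 ± 0.45 and passed (adjusted p 0.0472), where 0.267% of all did. In hidden platform rats it was 0.58 ± 0.34 (0.999), where 0% did. Without arrays of low correlation it was 0.71 ± 0.28 (0.71) in hidden platform rats, where 0% of all passed too. The cage difference of Prkce M18331_g_at went from 0.63 to -0.76 ± 0.58 (adjusted p 0.557) with the 3'/5' ratio in the model. A test of whether the age difference varied with treatment passed for 0 of 9 members and for 0.305% of all probe sets. The smallest p among the members was that of M15523_s_at, 0.0318 before and 0.289 after adjustment.

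Prkcz, the atypical isoform zeta, was higher in aged than in young cage controls on M18332_s_at. Its signal was 145, 364 and 429 in the young and 668, 921, 921, 1136 and 1308 in the aged, with no overlap, and the difference was 1.71 ± 0.48 (SE) with an adjusted p of 0.0093. This was the only member of 9 past the threshold in that comparison, against 17% of all probe sets, 9.84% as higher and 7.11% as lower. It was also 1 of 3 members with no overlap and all aged rats higher, beside Prkce M18331_at and Prkcb K03486_s_at, which 9.86% of all probe sets showed. The cage comparison rests on 3 young arrays, 2 of them of low correlation. Without young cage array 70, which held the signal of 145, the difference was 1.26 ± 0.54 and the adjusted p 0.123. Without all arrays of low correlation it was 1.32 ± 0.43 (adjusted p 0.0373), with 1 young array left whose spread was taken to be that of the other groups. With the 3'/5' ratio in the model it was 0.56 ± 0.37 (adjusted p 0.472).

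Over all treatments, Prkcz M18332_s_at had an age difference of 0.52 ± 0.19 (SE) and an adjusted p of 0.0862, with 39 of 44 aged rats above the young mean of their treatment. Its signal ran from 145 to 1177 (median 560) on the 19 young arrays and from 149 to 1571 (median 915) on the 44 aged ones. It was past the threshold in 4 of 11 other settings, among them that with the 3'/5' ratio in the model (0.41, adjusted p 0.0461). In the order of the group means, aged cage (9.94), hidden unimpaired (9.89) and aged yoked rats (9.77) stood highest and young cage controls (8.23) lowest. The step from young visible platform rats to young cage controls, 0.97, was the only one between neighbours that exceeded the larger SD of the pair. The other Prkcz probe set, J04532_at, was dim, with 9.8 to 190 in young and 9 to 373 in aged rats, and an untested difference of 0.45 ± 0.25.

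Prkcb, the conventional isoform beta, is known for a pair of splice forms with different ends, and its 3 probe sets fell into 2 patterns. E01789cds_s_at ran from 34.1 to 1108 (median 497) in young and from 70.9 to 1894 (median 628) in aged rats, with an age difference of 0.63 ± 0.25 (SE) and an adjusted p of 0.127. K03486_s_at ran from 50.0 to 852 (median 305) in young and from 32.6 to 1969 (median 476) in aged rats, with 0.69 ± 0.29 and 0.143. In cage controls K03486_s_at was 50.0, 67.3 and 190 in the young and 222, 242, 348, 507 and 562 in the aged, with no overlap, as in 9.86% of all probe sets. That cage difference was 1.83, and it was 0.71 ± 0.77 (SE, adjusted p 0.67) without arrays of low correlation and 0.58 ± 0.71 (0.758) with the 3'/5' ratio in the model. The third probe set, X04139_s_at, ran from 5338 to 45582 (median 11134) in young and from 695 to 38274 (median 11023) in aged rats, with a difference of -0.16 ± 0.23 and an adjusted p of 0.768, and 22 of 44 aged rats above the young mean. None of the 3 passed in the age comparison under any of 11 settings.

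Prkcd, the calcium-independent isoform delta, had no age difference past the threshold. M18330_g_at ran from 185 to 805 (median 480) in young and from 206 to 833 (median 425) in aged rats, a difference of -0.10 ± 0.14 (SE) with an adjusted p of 0.755, and 30 of 44 aged rats lay below the young mean of their treatment. M18330_at, dim, ran from 7.4 to 138 and from 4.4 to 170, with an untested difference of 0.54 ± 0.22, opposite in sign to that of its partner from the same accession.

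Prkca, the conventional isoform alpha, was read by 1 dim probe set, X07286cds_s_at. Its signal ran from 13.3 to 453 (median 45.8) in young and from 5.5 to 927 (median 60.9) in aged rats. The untested age difference was 0.31 ± 0.29 (SE), and the groups overlapped in every treatment.

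**Figure D3:**
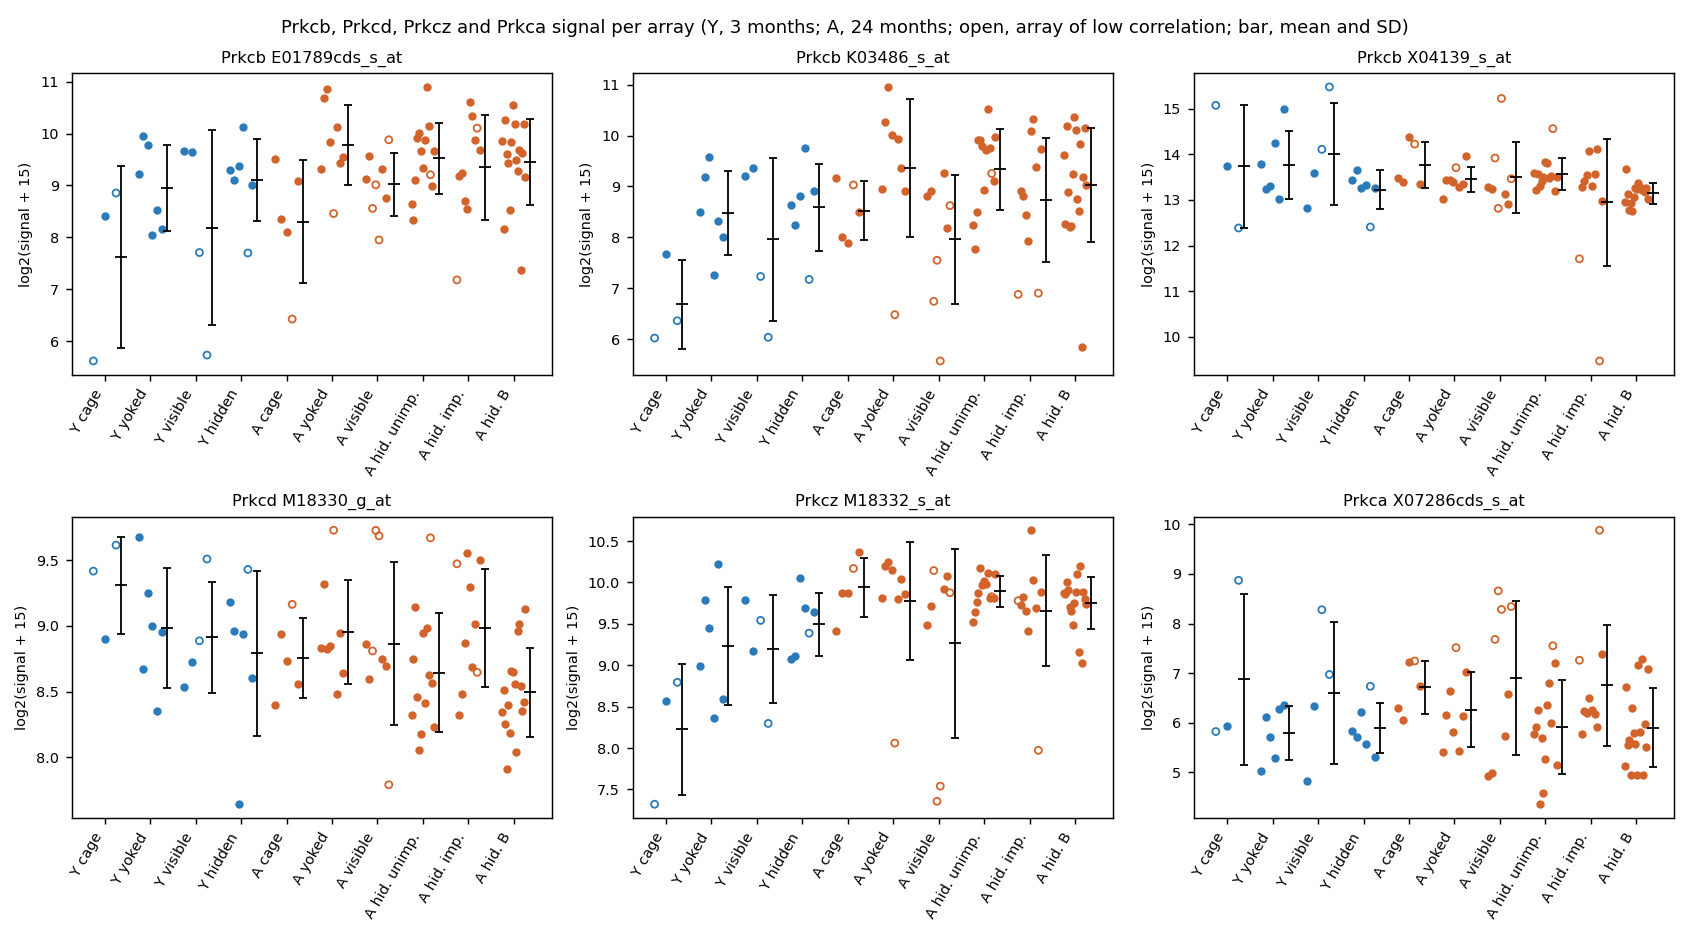
Signal of Prkcb, Prkcd, Prkcz and Prkca probe sets as log2(signal + 15), 1 point per array in each of the 10 groups (Y, 3 months, blue, and A, 24 months, orange), with mean and SD beside each group and arrays of low correlation as open points. Prkcz M18332_s_at shows young cage controls lowest (mean 8.23) and aged cage controls highest (9.94), and several of the farthest points are open.

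Learning the place of a hidden platform was compared with each control within an age, and 0 of 9 members passed in any of these comparisons. In young rats Prkce M18331_at was the member with the smallest p against visible platform rats, with 146 to 596 in hidden and 73.5 to 121 in visible platform rats. It was the only member of 9 with all hidden above all visible platform rats, which 0.591% of all probe sets showed, and 2 of the 4 visible arrays were of low correlation. The difference was 1.58 ± 0.43 (SE), with a p of 0.00117 before and 0.836 after adjustment, and 0% of all probe sets passed. Against young yoked rats it was 0.95 ± 0.38 (p 0.0199 before and 0.999 after adjustment), where 0% of all passed too and 1.77% were under 0.05 before adjustment. The members under 0.05 before adjustment numbered 1 of 9 in each of these comparisons, where the share of all probe sets was 5.23% against visible platform rats.

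Against young cage controls, 277 of all probe sets passed (5.28%) and 0 of 9 members. The closest were Prkcb K03486_s_at at 1.90 ± 0.66 (SE, adjusted p 0.0812) and Prkcz M18332_s_at at 1.27 ± 0.44 (0.0835), and M18331_at was 1.05 ± 0.47 (0.177). For Prkcz the 3 young cage arrays, at 145 to 429, lay below every young hidden platform rat, as 2 of 9 members and 7.67% of all probe sets did. With the 3'/5' ratio in the model, Prkcz was 0.51 ± 0.48, Prkcb K03486_s_at 0.53 ± 0.66 and M18331_at 0.82 ± 0.58 (adjusted p 0.999 for each), and 0 of all 5244 probe sets passed.

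Among aged rats, hidden platform training differed from visible platform training by 1.08 ± 0.41 (SE) for Prkcb K03486_s_at (p 0.0119 before and 0.313 after adjustment). For Prkce M15523_s_at the difference was -0.38 ± 0.19 (0.0454 and 0.423), and 0.0191% of all probe sets passed. Only these 2 of 9 members were under 0.05 before adjustment, against 11.4% of all. Of the 8 aged visible arrays, 4 were of low correlation. Against aged cage controls, where 0% passed, Prkcb E01789cds_s_at was 1.14 ± 0.39 (0.00568 and 0.331), the only member of 9 under 0.05 before adjustment, against 8.56% of all. Against aged yoked rats, where 0% passed, none of the 9 was under 0.05 before adjustment, and 2.96% of all probe sets were. Prkce M18331_at was there 0.65 ± 0.36 (adjusted p 0.999).

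Impaired and unimpaired aged learners did not differ past the threshold in any member, nor did any of the 5244 probe sets pass (0%), with 12.9% under 0.05 before adjustment by limma. None of the 9 members was under 0.05. Prkcb X04139_s_at had the largest difference, -0.63 ± 0.34 (SE), with signals of 695 to 17710 (median 10491) in impaired and 9335 to 24199 (median 11652) in unimpaired rats. Without impaired array 83, which held the 695, it was -0.25 ± 0.24 (adjusted p 0.818), and without all arrays of low correlation 0.04 ± 0.15 (0.929). The difference of Prkce M18331_at was 0.38 ± 0.37, that of Prkcz M18332_s_at -0.23 ± 0.28 and that of Prkcd M18330_g_at 0.34 ± 0.21.

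The B rats held the highest group mean of Prkce M18331_at, 9.65 ± 0.43 (SD, n = 16), with signals from 437 to 1249 and a median of 827. Impaired rats followed at 9.25 ± 0.55 (SD, n = 10), then aged cage controls at 8.88 ± 0.39 (SD, n = 5) and unimpaired rats at 8.87 ± 0.54 (SD, n = 13), and young visible platform rats stood lowest at 6.89 ± 0.29 (SD, n = 4). No step between neighbours in this order exceeded the larger SD of the pair. B rats differed from unimpaired rats by 0.79 ± 0.29 (SE, adjusted p 0.406) on M18331_at and by 0.40 ± 0.15 (0.429) on M15523_s_at, where 0.0572% of all probe sets passed. These were the 2 of 9 members under 0.05 before adjustment, against 7.17% of all. Without the arrays of low correlation, of which the B group had none and the unimpaired group 1, M18331_at passed (0.69 ± 0.19, adjusted p 0.04), 1 of 9 members against 1.66% of all. Whether B rats form a batch is not said in the labels, so B and any such batch cannot be told apart.

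Against impaired rats, where 12% of all probe sets passed, 5.8% as higher and 6.2% as lower, 0 of 9 members did. Higher values made up 48.3% of these calls, 77.2% with quantile normalization and 89.3% with median centring. Before adjustment 2 of 9 were under 0.05, against 32.1% of all. Prkcd M18330_g_at was -0.49 ± 0.18 (SE, adjusted p 0.0659), with 226 to 546 (median 339) in B and 306 to 735 (median 477) in impaired rats. Without the arrays of low correlation it was -0.47 ± 0.15 and passed (adjusted p 0.0404), as did Prkcb X04139_s_at at -0.39 ± 0.13 (0.0422), which was 0.20 ± 0.28 with all arrays, so 2 of 9 passed against 9.34% of all. The impaired arrays of low correlation, 83 and 8, held the 2 lowest signals of X04139_s_at in that group, 695 and 3336.

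The rest of the pathway was read from lists of 101 genes in 6 roles, with 1 probe set per gene, and 52 genes were measured. In the age comparison 8 of 52 passed (15.4%), 4 higher and 4 lower, against 5.13% of all probe sets. The lists were chosen with earlier results of these data known, so these shares cannot test the pathway. The median difference of all 52 genes was 0.08. Genes of diacylglycerol and phospholipid metabolism had 12 of 16 measured, of which 2 rose and 0 fell. These were Dgkz, a kinase that turns diacylglycerol into phosphatidic acid, at 0.94 ± 0.27 (SE, adjusted p 0.0251), and Mgll, a lipase of the endocannabinoid 2-arachidonoylglycerol, at 0.51 ± 0.16 (0.0499). The median of this list was 0.20. Within treatments, Dgkz differed by 2.64 ± 0.65 in cage controls (adjusted p 0.00354) and by 1.62 ± 0.54 in visible platform rats (0.457). Of the young arrays there, 2 of 3 and 2 of 4 were of low correlation. In yoked and hidden platform rats, Mgll and Pla2g4a had the smallest p of the list. In the test of whether the age difference varied with treatment, Dgkz had a p of 0.00562 before and 0.14 after adjustment.

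The list of PKC substrates and other effectors of diacylglycerol had 15 of 25 genes measured, of which 2 rose and 3 fell. Whether each listed gene, Pcp4 among them, has such a role was not tested. Gap43, a growth cone protein that PKC phosphorylates, fell by 0.70 on the log2 scale (SE 0.16, adjusted p 0.00441), and Pcp4, a small calmodulin-binding protein, fell by 0.81 (SE 0.21, 0.0135). Add3, an adducin of the membrane skeleton, rose by 0.66 ± 0.18 (0.0184), and Rasgrp1, an activator of Ras that binds diacylglycerol, rose by 0.92 ± 0.26 (0.0262). The third that fell was Marcks, a major PKC substrate at the membrane, by 0.57 (SE 0.17, 0.0389), which was named after its value was seen. The members of this list did not move one way, and its median was 0.04.

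Anchors, partners and regulators of PKC had 11 of 20 measured, with 0 higher and 1 lower, Grb10, an adaptor of the insulin receptor, which fell by 0.54 (SE 0.16, adjusted p 0.0329). Receptors coupled to phospholipase C had 6 of 14 measured and 0 past the threshold, and the smallest p was that of Chrm3, a muscarinic receptor, at -0.31 ± 0.13 (0.156). G proteins, phospholipases and inositol trisphosphate receptors had 7 of 17 measured and 0 past it, with Itpr3 at -0.28 ± 0.13 (0.206). Of 9 other PKC family genes 1 was measured, Prkch, the isoform eta, at -0.24 ± 0.17 (0.427). Median centring of the arrays left 0 of the 52 past the threshold.

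**Figure D4:**
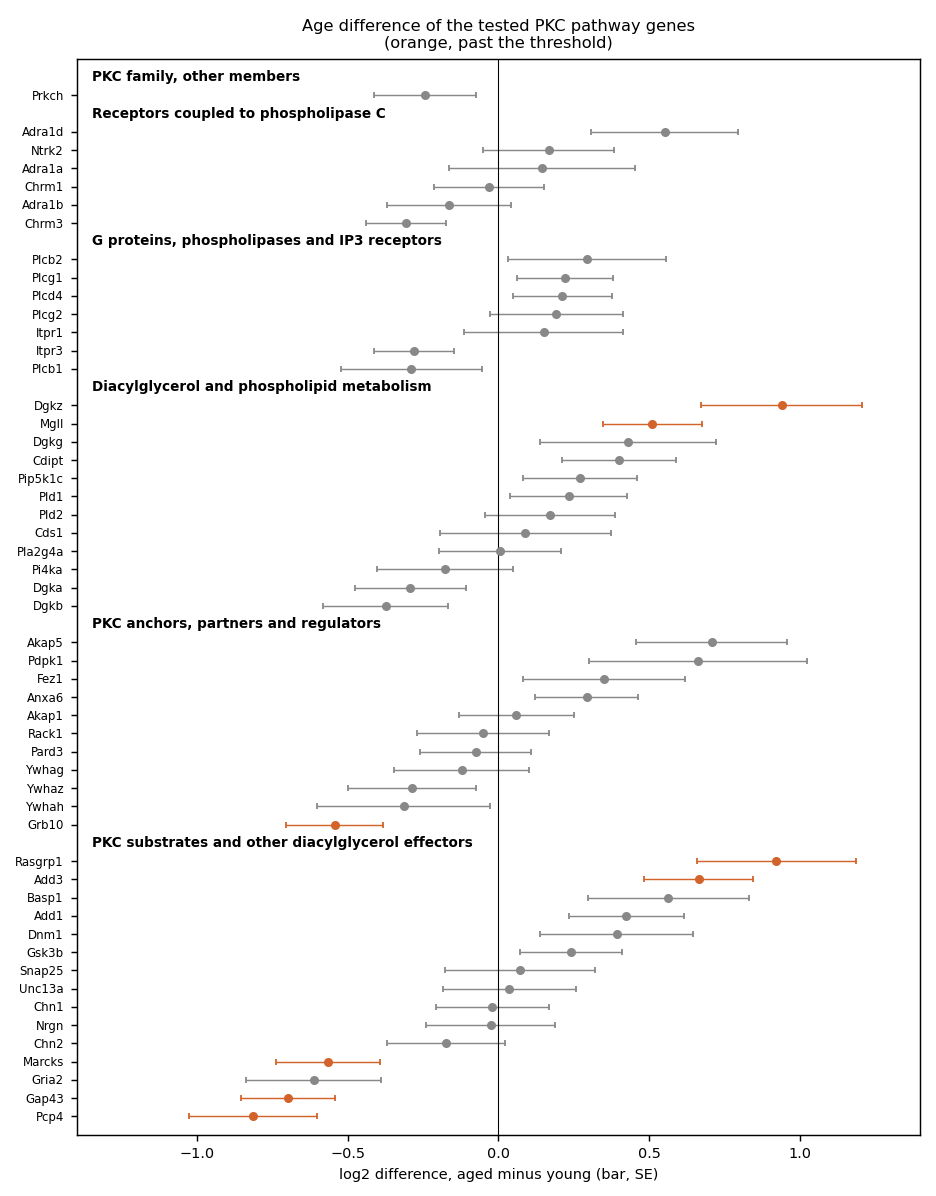
Log2 difference aged minus young (x axis, bar is SE, 63 arrays, treatment as a factor) of the 52 measured pathway genes, grouped by role, with genes past the threshold in orange. The 8 orange points stand on both sides of 0, from -0.81 for Pcp4 to 0.94 for Dgkz.

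In B against impaired rats, 7 of the 52 passed (13.5%), a share near the 12% of all probe sets. The smallest p values were those of Pla2g4a, the cytosolic phospholipase A2 that frees arachidonic acid, at -1.16 ± 0.25 (SE, adjusted p 0.00266), Anxa6, a calcium-dependent membrane-binding protein, at 0.85 ± 0.23 (0.0139), and Ntrk2, the receptor of brain-derived neurotrophic factor, at 0.95 ± 0.26 (0.0144). Of 6 endothelial and mural markers 2 fell in that comparison and the median was -0.97, with Pecam1 at -1.38 ± 0.33 (0.00571), and of 8 interneuron markers 2 rose, with Sst at 0.90 ± 0.24 (0.0144). Their part in the pathway values was not tested.

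In young hidden platform rats against cage controls, 3 of 52 passed (5.77%) against 5.28% of all, among them Dgkz at 2.54 ± 0.70 (0.0383). With the 3'/5' ratio in the model none of the 5244 probe sets passed, these 3 included, and without arrays of low correlation 7 did. The oligodendrocyte marker Mbp rose by 4.70, the CA1 marker Itpka by 3.75 and the astrocyte marker Aldoc by 3.16 in the same comparison. Mbp was 1 of 7 oligodendrocyte markers measured and does not stand for that list. Of 5 CA1 markers only 2 were above 0 (median -0.20), and of 6 astrocyte markers 5 were (median 0.43). The part of these markers in the value of Dgkz was not tested.

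Some markers of other cells passed the threshold with age beside Prkce, where 5.13% of all probe sets passed. Of 6 measured astrocyte markers 1 rose, the water channel Aqp4 by 0.96 ± 0.23 (SE, adjusted p 0.00665), and the summed signal of the list ran from 3656 to 31460 (median 22556) in young and from 4992 to 45838 (median 31296) in aged rats. Of 4 measured microglial markers 1 rose, the complement subunit C1qb by 1.25 ± 0.23 (0.000632), with sums of 448 to 1549 (median 966) and 594 to 2202 (median 1424). These sums include C1qb, whose mean signal of 663 was the highest of the 4. C1qc differed by 0.27 ± 0.19, Aif1 by 0.06 ± 0.24 and Cx3cr1 by -0.0017 ± 0.22, none past the threshold. Of 8 interneuron markers 1 fell, Sst by 0.67 (SE 0.21, 0.0414), with sums of 7123 to 33013 (median 13026) and 3820 to 16609 (median 10635). Of these 8, 2 were above 0, among them Gad2 at 0.57 ± 0.20 (0.0667), and the median difference was -0.14. Of 7 oligodendrocyte markers 0 passed, with Mbp, a protein of the myelin sheath, at 1.44 ± 0.46 (0.0502) and sums of 5394 to 22787 (median 10106) and 4062 to 31610 (median 12965). Of these 7 only 3 were above 0, and the median difference was -0.05. None passed of 5 CA1 pyramidal neuron, 6 endothelial and mural, 3 choroid plexus, 3 dentate granule and CA3, and 2 thalamus markers. None of the measured markers was at 0 on any array, and their part in the age difference of Prkce was not tested.

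In cage controls, where Prkcz M18332_s_at rose, markers of several cell types passed as well, as 17% of all probe sets did. Of 7 oligodendrocyte markers 2 rose and 1 fell, and Mbp was higher by 4.61 ± 1.13 (SE, adjusted p 0.00365). Of 6 astrocyte markers 1 rose, the glycolytic enzyme Aldoc by 3.62 ± 0.92 (0.005), and of 4 microglial markers 1 rose, C1qb by 2.19 ± 0.59 (0.0073). Of 5 CA1 markers 1 rose, Itpka by 3.78 ± 1.08 (0.0107), while 2 of the 5 had differences below 0. Of 8 interneuron markers 1 rose and 2 fell, Gad1 being at -1.56 ± 0.44 (0.0107). The endothelial and mural, choroid plexus, dentate and thalamus lists had 0 past the threshold. The part of these markers in the Prkcz value was not tested.

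Probe sets of one gene did not always move together from array to array. Over 79 arrays, which share the scaling and the array quality, the Spearman correlation of the 9 pairs of tested probe sets of one gene ran from -0.21 to 0.86 with a median of 0.50, and that of the 27 pairs of different genes from -0.47 to 0.59 with a median of 0.11. Within groups the medians were 0.32 and 0.03. Prkcb E01789cds_s_at and K03486_s_at had 0.86, while E01789cds_s_at and X04139_s_at had -0.21. Prkce M18331_at had 0.67 with M18331_g_at and 0.53 with M15523_s_at, which became 0.74 for each on the 65 arrays left without those of low correlation. The highest value between genes was that of Prkcb K03486_s_at and Prkcz M18332_s_at, 0.59.

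**Figure D5:**
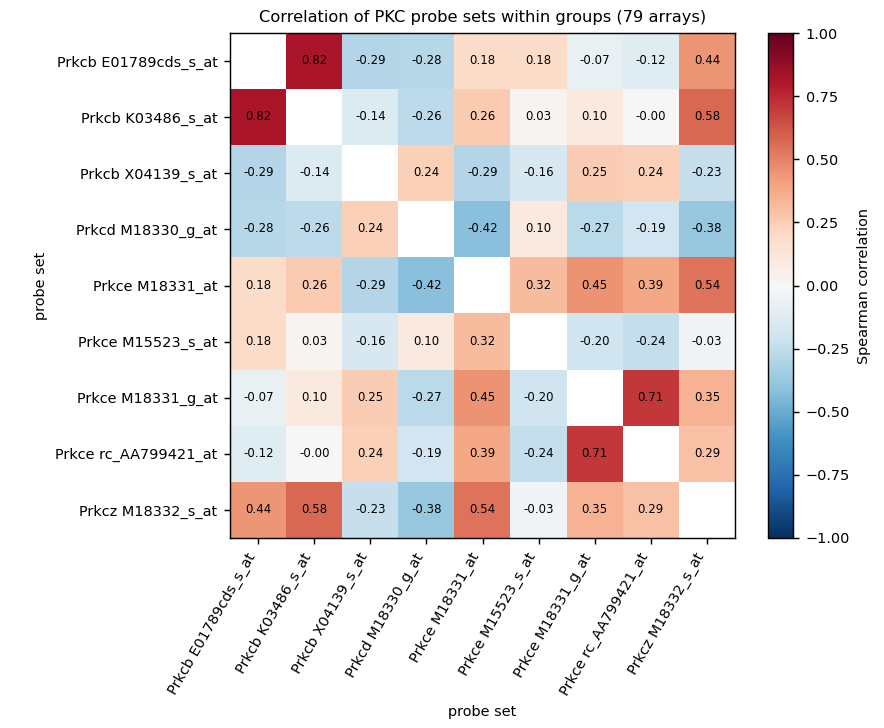
Spearman correlation within groups between the 9 tested PKC probe sets over 79 arrays, after each group's mean was taken off, as a colour scale from -1 to 1 with the value in each cell. Prkcb E01789cds_s_at and K03486_s_at (0.82) and Prkce M18331_g_at and rc_AA799421_at (0.71) stand out, and Prkce M15523_s_at has -0.20 with M18331_g_at. With group means left in, that last pair has 0.13 over 79 arrays and 0.44 on the 65 without those of low correlation.

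The genes whose pattern over 79 arrays was most like that of each member's brightest probe set were found by Spearman correlation. For Prkce M18331_g_at these were Tle5 (0.79), Plpp3 (0.78) and Ncdn (0.77). For Prkcz M18332_s_at they were Aldoc (0.72), Park7 (0.71) and Ptk2b (0.71). For Prkcb X04139_s_at they were Pgam1 (0.80), Map2 (0.74) and Atp1b1 (0.71), and for Prkcd M18330_g_at they were Mgst2 (0.73), Or13p4 (0.72) and Mchr1 (0.72). On the 65 arrays without those of low correlation, Tle5 and Plpp3 stayed among the first 3 of Prkce, Aldoc of Prkcz, Pgam1 of Prkcb and Or13p4 of Prkcd.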

How the data were processed

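The deposited values are intensities on a linear scale, 1 for each probe set of an array. The submitters' processing notes name MAS5. Its version, the probe sequences and the scan dates were not used here. After the highest and lowest 2% were left out, array means lay between 499.34 and 500, so the authors had scaled the arrays. Median signals were 98.9 to 347.1, and the number of arrays limits the precision. Of 8799 probe sets, 59 controls and the 40% of lowest mean signal were left out, which kept 5244. Symbols came from the platform's annotation: 7018 probe sets had 1 symbol, 308 several and 1473 none, and 6994 were found by gene identifier.

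Values were tested as log2(signal + 15) with limma 3.58.1 in R 4.3.3 (lmFit, eBayes with trend), two-sided, Benjamini-Hochberg over 5244. Age used treatment as a factor, and other comparisons 1 mean per group. All members were reported, and up to 4 genes of each pathway list by p. Likeness used the probe set of highest mean signal. On simulated data, 33% and 91% of 100 probe sets changed by 0.5 and 1 (log2) in the age comparison were recovered, with 4 false calls of 5044. The simulated noise was normal and independent between arrays and probe sets. It held no arrays of low correlation, treatment effects or 3' to 5' differences, so these rates need not hold for the real arrays. Alternatives were other pseudocounts, filters, scalings and weights, the 3' to 5' ratio, and arrays left out. Settings within treatments, and single arrays left out between impaired and unimpaired rats, were added after the data were seen. Members and lists were chosen with earlier results of these data known.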

Additional observations from a re-analysis of the deposited data

Results flagged for a closer look

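In 84 groups of 4 to 10 arrays, 11 held a member's signal far from the nearest of the group, where chance gives about 1 in 20, and all 11 lay on arrays of low correlation. Impaired array 83 held 4 of them. These were the highest Prkca X07286cds_s_at, 927.1 with the next at 151, and the lowest Prkcb X04139_s_at, 695 with the next at 3336, Prkce M18331_g_at, 240.9 with the next at 1602, and Prkcz M18332_s_at, 236.3 with the next at 666. Aged yoked array 63 held the lowest Prkcb K03486_s_at, 74.3 against 467, and Prkcz M18332_s_at, 251.9 against 879. Young visible array 30 held the highest Prkce M18331_g_at, 6429.9 against 1898, and Prkcz J04532_at, 189.8 against 25.7. Aged visible array 67 held the lowest Prkce M18331_at, 31.7 against 223, and array 68 the highest Prkcb X04139_s_at, 38274.4 against 15475. Young hidden array 39 held the lowest Prkcb X04139_s_at, 5419.8 against 9783. The log2 ratio of 3' to 5' controls was -0.31 on array 83, -0.04 on array 63 and -0.56 on array 68, below the mean of every group, and 3.46 on array 30.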

How the results depend on the processing

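Of 1089 single member values compared under other settings, 1058 kept their side of the threshold, 61 of them uncalled with the opposite sign, while 3 lost the call, 26 gained it and 2 turned. The turned values were those of Prkcb X04139_s_at in B against impaired rats, 0.20 with all arrays, -0.37 with array quality weights and -0.39 without arrays of low correlation. The 2 members called with age became 1 with no filter, with quantile normalization and with median centring, and 4 with array quality weights and without arrays of low correlation, where the share of all probe sets was 2.2%, 1.85%, 1.47%, 21.6% and 13.9%. Leaving out 1 array gave 1 to 3, and 1 was reached without aged cage 35 or 100, aged yoked 25, 61, 62 or 93, young cage 70 or 74, young hidden 2 or 3, young visible 28, 29 or 30, or young yoked 22, 58 or 60. The count of 0 for the interaction became 6 with array quality weights, whose estimate did not fully converge and under which 35.3% of all probe sets passed. For B against impaired rats 0 became 1 with no filter (21.3% of all), 2 with median centring (20%), 1 with weights (14.9%) and 2 without arrays of low correlation (9.34%), and 0 to 1 with 1 array left out (1 without impaired 44, 47 or 52). For B against unimpaired rats it became 3 with weights (8.31% of all) and 1 without arrays of low correlation (1.66%). For young hidden platform against cage rats it became 6 with weights (28.3% of all), 1 in 1 fit over all 79 arrays (14.3%), and 0 to 1 with 1 array left out (1 without young cage 74, young hidden 39 or young visible 65). The 8 pathway genes with age became 5 with no filter, 3 with quantile normalization, 0 with median centring, 14 with weights and 16 in 1 fit (19.3% of all), and 4 to 9 with 1 array left out (4 without young cage 70, young visible 65 or young yoked 58). The cause of these changes was not tested. No paired analysis was possible because animal numbers are unique and link no animals of different groups. The other probe sets of the same gene, as a setting, change nothing for the members, since all are counted.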
